A study of Drosophila melanogaster with 2 samples.

Results

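HmgD and HmgZ are neighbouring genes on chromosome arm 2R of Drosophila melanogaster that encode small high mobility group (HMG) box proteins, and they were examined here as sites of the zinc finger protein Kmg. They are 2 of 13968 protein-coding genes, and they were selected on the pooled signal and position of a strong peak where they overlap, seen in an earlier look at these data. Chromatin immunoprecipitation with sequencing (ChIP-seq) had been done on whole adult males that carry a transgene of CG5204 (kmg) with a C-terminal eGFP tag, which was pulled down with anti-GFP. There was 1 group with 2 biological replicates of 1 transgenic line, of unknown age. The control experiment that the labels name was not analysed here. No other genotype or treatment was available, so no condition was compared, and all values below are descriptions without a test. Whole animals were used, so more cells with a bound site and more binding per cell cannot be told apart.

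HMG-box proteins of this type bind the minor groove of DNA with little preference for sequence, bend it and loosen chromatin. They are abundant relatives of the vertebrate HMGB proteins, and HmgD is known from early fly embryos, where it is found in chromatin before the linker histone appears. Kmg has been studied in the male germ line, where, together with Mi-2 (a chromatin remodeller), it prevents misplaced transcription in spermatocytes.

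The genes lie on opposite strands with their 5′ ends overlapping. HmgD (FBgn0004362, plus strand) runs on 2R from 21701458 to 21716727 on build dm6, and HmgZ (FBgn0010228, minus strand) from 21697488 to 21707861. Both spans share 6404 bp, from 21701458 to 21707861. Each gene has 4 annotated transcripts and 3 distinct transcription start sites (TSSs). Every transcript has 3 exons. The coding sequence, 112 codons in HmgD and 111 in HmgZ, lies in exons 2 and 3 and is the same in all transcripts of a gene, while the first exons are noncoding. The coding sequences had the same base in 249 of 355 columns of a global alignment (70.1%). HmgD-RD starts at 21701458, inside HmgZ, and splices over a first intron of 13341 bp. The other HmgD transcripts start 11898 bp or more farther on, at 21713356 (HmgD-RA and HmgD-RC) and 21714136 (HmgD-RB). HmgZ starts at 21702830 (HmgZ-RA and HmgZ-RC), at 21704501 (HmgZ-RB) and at 21707861 (HmgZ-RD), all inside the HmgD-RD transcription unit.

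A cluster of 6 summits lay in the shared stretch, and the list of reproducible peaks had none elsewhere in the locus. Of the 6, 3 had a pooled false discovery rate of at most 5%, and 5 had a summit within 100 bp in both replicates. The list of peaks past the irreproducible discovery rate (IDR), which held the 2868 regions of highest pooled signal, had 6 summits from 5 kb before to 5 kb after the pair (2R from 21692488 to 21721727, 29240 bp). All 6 lay between 21702580 and 21706528, within the 6404 bp shared by both genes, and 0 lay in the other 22836 bp. At the mean density over the full arm a window of this length would hold 0.582 IDR summits. The pair was chosen for a strong peak, so at least 1 summit in this window was set by that choice. Of all protein-coding genes, 31.6% had at least 1 IDR summit in the gene body or within 5 kb, and 41 (0.294%) had 6 or more. The cut of 6 is the count of the pair itself. The pooled list of 30000 regions, which includes background, held the same 6 summits and no other, where 5.99 would lie at the mean density. The nearest IDR summits outside the window lay 22455 bp before it, with a signal of 211, and 162542 bp after it, with a signal of 46.3.

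**Figure D1:**
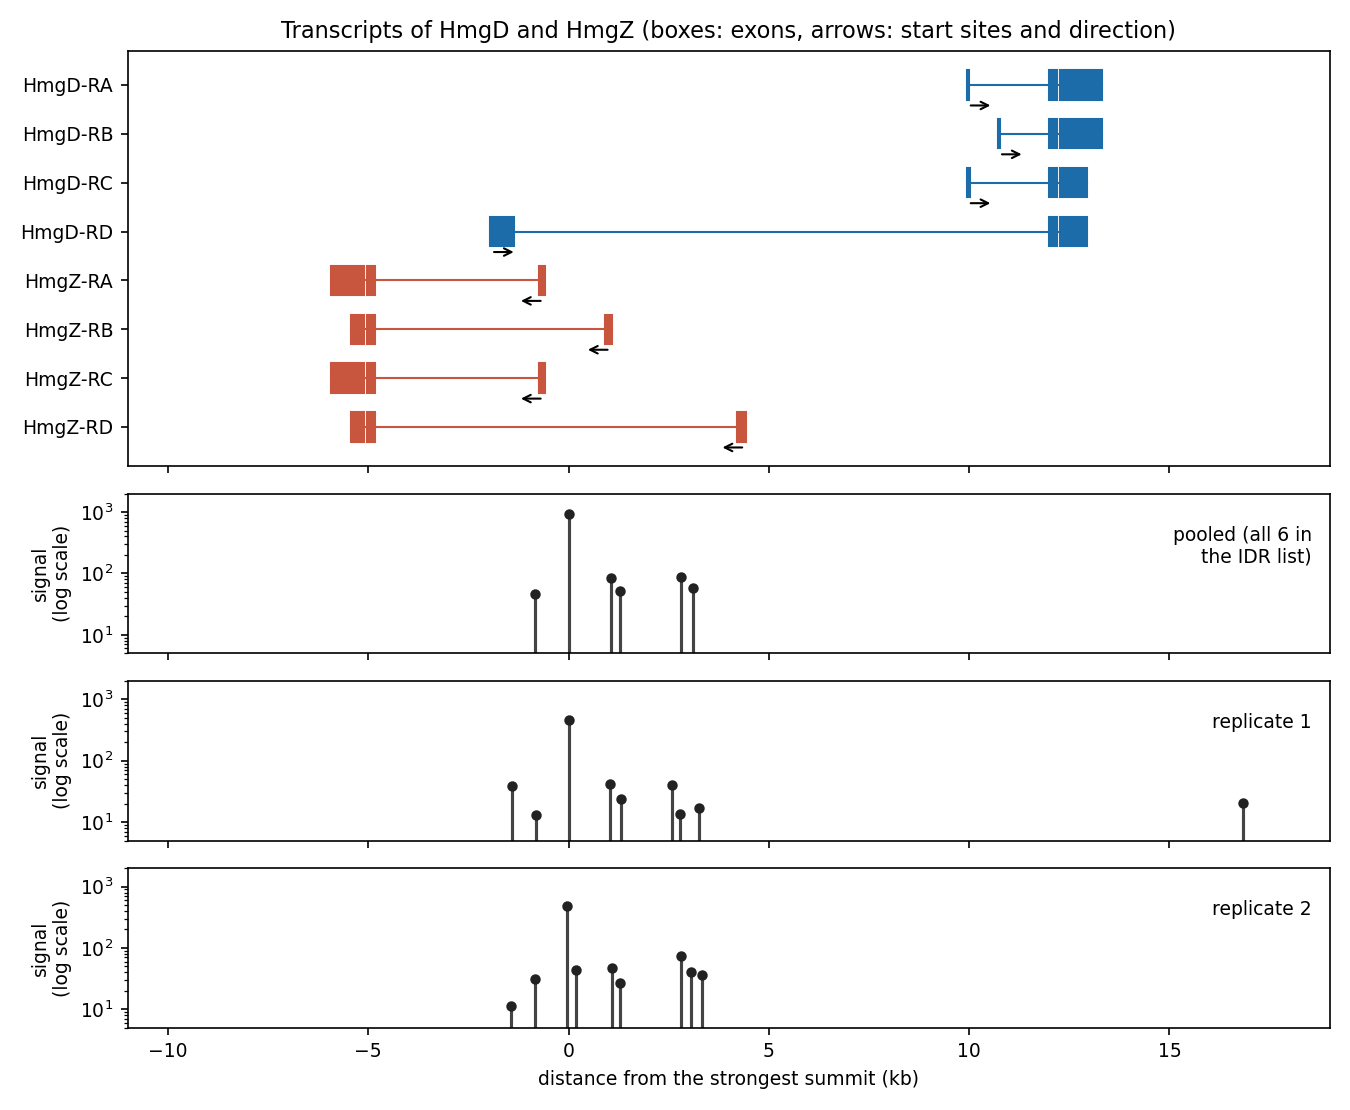
Transcripts of HmgD and HmgZ (top) and the signal of each summit (log scale) in the pooled list and in replicates 1 and 2, against the distance from the strongest summit in kb. The pooled summits lie between the first exon of HmgD-RD and that of HmgZ-RD, and no summit lies near the HmgD start sites about 10 kb to the right.

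The strongest summit, at 21703422 in a peak from 21703191 to 21703648, lay in introns of both genes. Its pooled signal was 943, a value from the authors' peak caller in units that no source used here defines, and it ranked 7 of 30000. In replicate 1 the signal was 458, ranked 7, and in replicate 2 it was 481, ranked 8. The summits of the replicates lay at 21703429 and 21703395, 7 bp above and 27 bp below the pooled one. The false discovery rate was 0.000579 in the pooled list. The summit fell in the first introns of HmgD-RD, HmgZ-RB and HmgZ-RD, 592 bp upstream of the TSS of HmgZ-RA and HmgZ-RC and 1964 bp downstream of that of HmgD-RD. It lay beyond the 500 bp used here to call a promoter peak, as did 1240 of the 2868 IDR peaks (43.2%). Its signal was 10.8 times that of the next strongest summit of the cluster and 74.3% of the sum over all 6 (1269). These values chose the genes and are given as a description.

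The other 5 summits were much weaker and stood beside HmgZ start sites or between them. The first of them, at 21702580, had a signal of 46.4 (rank 2541, false discovery rate 0.169) and lay 250 bp downstream of the TSS of HmgZ-RA and HmgZ-RC, in their first intron. The summit at 21704491 had 83.4 (rank 1208, false discovery rate 0.00538) and lay 10 bp inside the first exon of HmgZ-RB. It was followed by one at 21704710, 209 bp upstream of the same TSS, with 52.4 (rank 2165, false discovery rate 0.109). Farther on, the summits at 21706220 and 21706528 had 87.1 (rank 1146, false discovery rate 0.0048) and 57.4 (rank 1931, false discovery rate 0.0697). They lay 1641 and 1333 bp downstream of the TSS of HmgZ-RD. All 6 lay in the first introns of HmgD-RD (13341 bp) and HmgZ-RD (9024 bp). The regions at 21704491 and 21704710 overlap, as do those at 21706220 and 21706528, so that overlapping regions share reads and the cluster comes to 4 separate stretches.

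By the cut of 500 bp, HmgZ had promoter peaks and HmgD had none. Within 500 bp of a TSS, IDR summits lay at 2 of the 3 HmgZ start sites (1 summit at 21702830 and 2 at 21704501), and 12.5% of all protein-coding genes had such a promoter peak. The summit at 21702830 was a weak call, with a false discovery rate of 0.169 in the pooled list and 0.637 in replicate 1. At the distal HmgZ start, 21707861, the nearest IDR summit was 1333 bp away. The 3 HmgD start sites were 1122, 6828 and 7608 bp from the nearest IDR summit. No list had a summit within 500 bp of any of the 3. At the start of HmgD-RD the nearest summit lay just past that cut, 554 bp away in replicate 1 and 530 bp away in replicate 2. At the starts of HmgD-RA, HmgD-RB and HmgD-RC the nearest summit in either replicate was 6128 bp or more away.

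The replicates had the same strongest summit, were close at 2 of the 5 weaker ones and differed more at the other 3. Each replicate list, 30000 regions including background, held 9 summits in the window, of which 8 in replicate 1 and 9 in replicate 2 lay in the shared stretch. Of the 6 pooled summits, 5 had a summit within 100 bp in both. At 21704491 the signals were 41.7 in replicate 1 and 48.0 in replicate 2, and at 21704710 they were 24.1 and 27.1. These are close to each other, as at the strongest summit, where the ratio of replicate 1 to replicate 2 was 0.952. Over the 2523 IDR peaks listed in both replicates, the median ratio was 0.961, with quartiles of 0.745 and 1.21.

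At 21702580 replicate 1 had 13.0 (rank 10917, false discovery rate 0.637) and replicate 2 had 31.7 (rank 2010, false discovery rate 0.103), a ratio of 0.409. The summit at 21706220 had 13.4 in replicate 1 (rank 9913, false discovery rate 0.629) and 72.8 in replicate 2 (rank 635, false discovery rate 0.000572). That ratio of 0.184 was matched or undercut at 5 of the 2523 peaks (0.198%), this one included. Replicate 1 listed a stronger summit 217 bp away, at 21706003, with a signal of 39.6. No summit of replicate 1 lay within 100 bp of 21706528, and its nearest, at 21706669, had 17.1, against 40.6 in replicate 2. Nearest the HmgZ-RD start, replicate 2 thus had the higher signal at both pooled summits. Within 300 bp, all 6 pooled summits had a counterpart in both replicates.

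**Figure D2:**
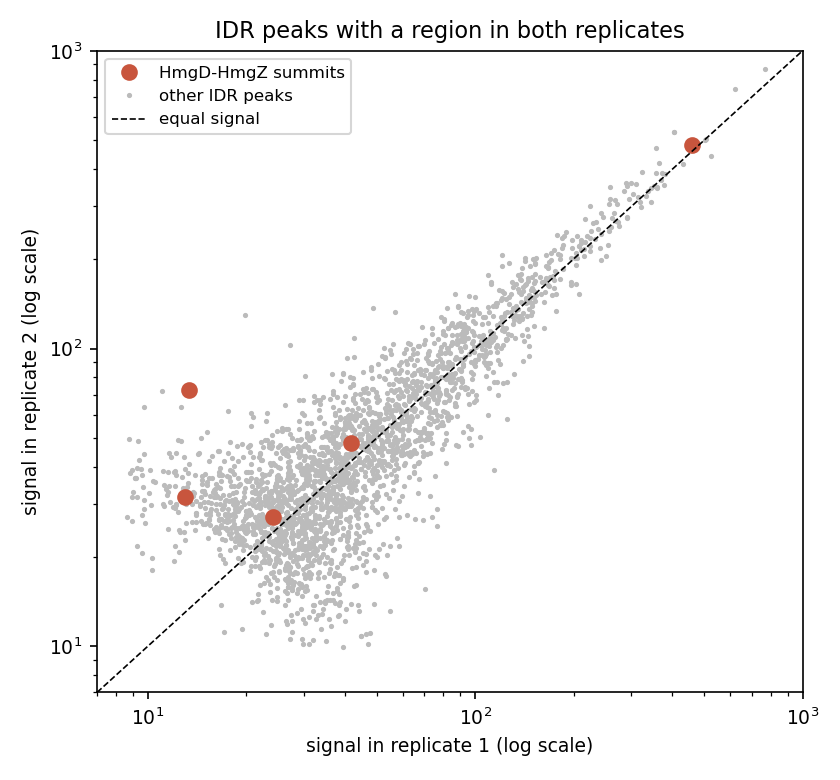
Signal in replicate 2 against signal in replicate 1 (both log scales) for the 2523 IDR peaks listed in both, with 5 HmgD-HmgZ summits in red and equality as a dashed line. The summit with 458 and 481 sits on the line at the top, and the one with 13.4 and 72.8 lies far above it.

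Some summits appeared in the replicates alone. In the first exon of HmgD-RD, replicate 1 had a summit at 21702012 with a signal of 38.1 (rank 1574, false discovery rate 0.0175), and replicate 2 had one at 21701988 with 11.4 (rank 20278). They lay 554 and 530 bp downstream of the TSS, just outside the promoter window, and the pooled list had no region there. Replicate 2 listed a second summit within the strongest region, at 21703597, with 43.5, and another at 21706759 with 36.1. In replicate 1, 1 summit lay in the window outside the shared stretch, at 21720264 with 20.7 (rank 3620), 231 bp from a TSS of LBR, which encodes the lamin B receptor. It also lay within 500 bp of the Tango11 start sites at 21719845 and 21719963. The first replicate 1 summit beyond the edge of the window lay 2114 bp past it, with 8.64.

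The other genes of the neighbourhood had no IDR summit at their start sites. CngB, Tango11, CG30398 and LBR, the protein-coding gene CG30403 and the noncoding gene lncRNA:CR44749 also have a TSS in the window. CG30403 and lncRNA:CR44749 lie inside the long HmgD-RD intron, and their TSSs were 5085 and 3067 bp from the nearest IDR summit. In the other 4 genes that distance was between 5428 and 14206 bp.

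The summits stood closer together than any other 6 in the list. From the first to the last was 3948 bp, the shortest of 2838 runs of 6 consecutive IDR summits on an arm, whose median was 173828 bp. The next shortest, on 3L from 11349357 to 11354576, spanned 5219 bp, and the third, over LPCAT on X, spanned 6217 bp. This comparison was chosen after the values were seen. The place was 2 among runs of 5, 7 among runs of 4 and, with overlapping regions joined, 10 among 2647 runs of 4. Among the 2868 strongest regions of replicate 2 alone, 8 lay in the window, and their tightest run of 6 (3095 bp) was the shortest of that list. It ran from 21703395 to 21706490 and was not a repeat of the same 6 summits. It counted 21703395 and 21703597, which are summits of the same region, and left out 21702578. Replicate 1 alone had 4 in the window, too few for a run of 6, and its run of 4 (3991 bp) had place 35 of 2850.

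**Figure D3:**
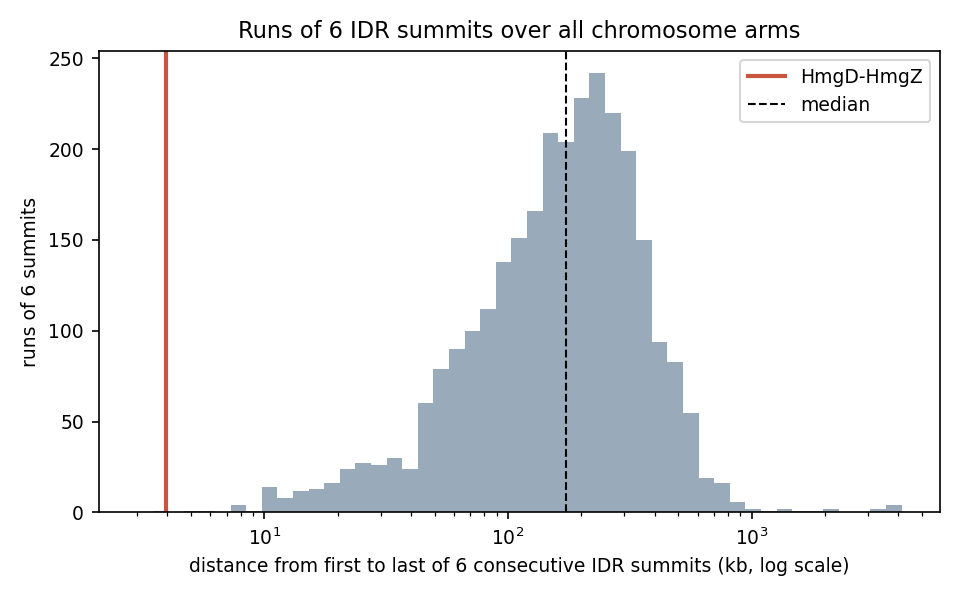
Number of runs of 6 consecutive IDR summits by the distance from first to last (kb, log scale), over all arms. The HmgD-HmgZ run of 3.948 kb (red line) is the shortest, and the dashed line marks the median of 173.828 kb.

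Long introns with so many summits were few, in a comparison built after the values were seen. The length range was set to include the HmgD-RD intron, and the cut of 6 is the count of that intron itself. Among 1201 introns of 10 to 17 kb in protein-coding genes, 291 (24.2%) held an IDR summit and 3 (0.25%) held 6 or more. The HmgD-RD intron was 1 of these, beside introns of CHES-1-like, a forkhead gene, and fray, a kinase gene. The first intron of HmgZ-RD (9024 bp), which held the same 6 summits, was shorter than the range. Over whole gene bodies, 23 genes (0.165%) had 6 or more summits, HmgD and HmgZ among them.

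Gene pairs that overlap at their 5′ ends were set beside HmgD and HmgZ, a comparison chosen after the data were seen. There were 207 such pairs of protein-coding genes, and an IDR summit lay in the shared stretch of 20 (9.66%). The pair was chosen on the strongest signal in its shared stretch, so its place by that signal only describes the choice. HmgD and HmgZ led the 20 in signal, with 943 against 240 for the next, Vha100-2 and Vti1b (a subunit of the vacuolar proton pump and a SNARE protein). Then came elav and arg with 213, Pgk and Bacc with 173, and lawc and Trf2 with 138. In 18 of the other 19 pairs the shared stretch held 1 summit, and elav and arg had 2. The median of their strongest signals was 55.3. Pairs with a gene in common can share a stretch, and the peaks of 55.1 and 45.5 each count more than once in these numbers. Of the 207 pairs, 14 shared 6404 bp or more, HmgD and HmgZ among them, and 5 of the 14 held a summit. Genes overlapping at their 3′ ends held 0 summits in 1456 shared stretches, with a median length of 81 bp, against 476 bp for 5′ overlaps. Genes nested in another held one in 43 of 1101 (3.91%). Overlapping pairs on the same strand held one in 46 of 968 (4.75%), led by bbx and waw with 520, mod(mdg4) and pre-mod(mdg4)-E with 443, CG15717 and MFS10 with 336, CG32815 and TRAM with 294, and Hyls1 and chif with 285.

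**Figure D4:**
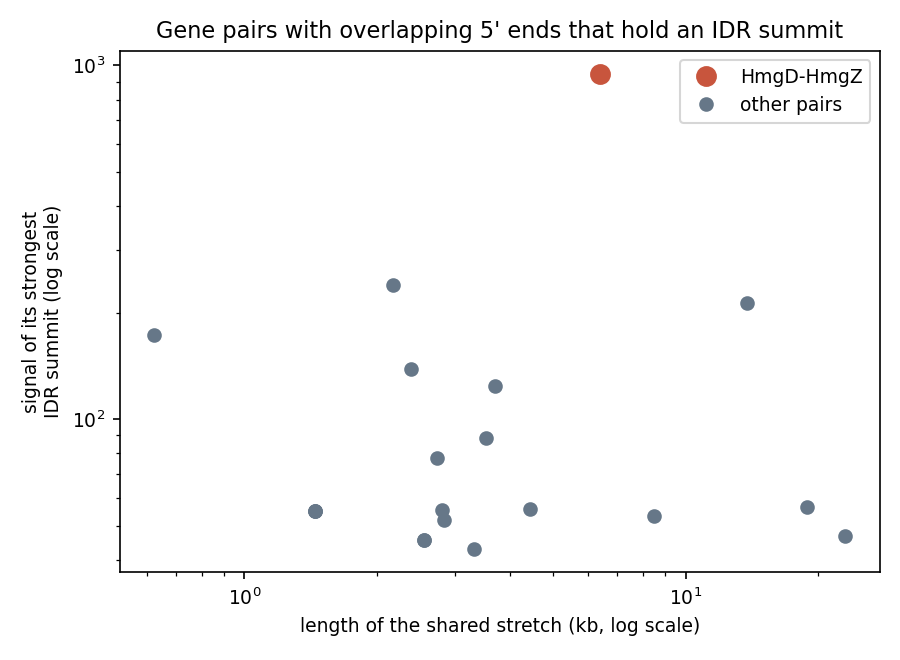
Signal of the strongest IDR summit in the shared stretch (log scale) against the length of that stretch in kb (log scale), for the 20 pairs of genes with overlapping 5′ ends that hold a summit (pairs that share a peak lie on each other). HmgD-HmgZ, in red, lies at 943, the signal on which the pair was chosen, and the next pair at 240.

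Among peaks over 500 bp from every TSS, the HmgD-HmgZ summit had place 4 of 1240 by the signal that chose the pair. Those above it lay in introns of CG11050 (1368), of Trl, which encodes GAGA factor (1010.4), and of the kinase gene Lk6 (976). Next below came an intronic peak of CG12769 (758), an intergenic one on 2L from 2202206 to 2202590 (736) and one in an intron of CG9663 (720). By the distance between log2 signals over both replicates, the nearest of the other intronic peaks were those of Lk6 (469 in replicate 1 and 497 in replicate 2), Trl (506 and 504) and CG12769 (379 and 386), against 458 and 481 at HmgD and HmgZ. Sequence at the HmgD-HmgZ summit is given only as its composition. Within 100 bp it had 32.8% G or C, and in the central 61 bases it had 31.1%. The 3 stronger peaks, which lie on other arms, are shown for comparison of their summits. Each is 61 bases of the RefSeq Release 6 (dm6) plus strand, with the summit base in capitals. They had 19.7% G or C in CG11050 (2L from 6612683 to 6612743), 27.9% in Trl (3L from 14759457 to 14759517) and 27.9% in Lk6 (3R from 11761043 to 11761103).
CG11050: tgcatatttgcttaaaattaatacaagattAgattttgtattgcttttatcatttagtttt
Trl: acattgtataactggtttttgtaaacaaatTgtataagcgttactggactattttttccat
Lk6: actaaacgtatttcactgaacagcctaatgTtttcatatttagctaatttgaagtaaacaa

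The summits of the cluster differed in base composition. The 3 at 21704491, 21704710 and 21706220 had 48.8%, 55.2% and 50.2% G or C within 100 bp, above 94.5%, 99.0% and 96.3% of all IDR summits. Those at 21702580 and 21706528 had 38.8% and 37.3%, and the strongest had the lowest value of the 6 within 100 bp. In the central 61 bases the summit at 21706528 was lower, with 29.5% against 31.1% at the strongest. Within 100 bp, the mean over all IDR summits was 35.7% (SD 7.02 over peaks). A set of 6 short words was searched on both strands within 100 bp of each summit. CGATA, the core of the BEAF-32 site, was found at 3 of the 6 (21704491, 21704710 and 21706528), and at 28.5% of all IDR summits. TATAAA was found at 2 of the 6, the strongest included, and at 36.9% of all. GAGAG of GAGA factor (22.1% of all), the longer Dref element TATCGATA, which contains CGATA (3.14%), the E-box CAGCTG (8.30%) and the Sox word AACAAT (25.0%) were found at 0 of the 6. Every 31-base word of the 6 regions occurred once in the reference genome, as in 97.4% of all IDR regions.

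Other genes of the HMG-box family had promoter peaks too, and no other member had 6 summits. Of 23 genes on the HMG-box list, 6 (26.1%) had a promoter peak, against 12.5% of all protein-coding genes, and 13 (56.5%) had an IDR summit in the gene body or within 5 kb, against 31.6%. The median of their promoter signals was 73.0, against 97.0 over all genes with a promoter peak. Without HmgD and HmgZ, 5 of 21 had a promoter peak and 11 of 21 a summit within 5 kb. The median strongest summit of these 11 was 148, above the 103 over all protein-coding genes with a summit within 5 kb. HmgZ had a promoter signal of 83.4. Among the other members, Sox14, an ecdysone response factor, had 780, and bbx, which encodes a large HMG-box protein, had 520. Dsp1, an HMG-box corepressor, had 44.8 at a promoter and a stronger summit of 280 within 5 kb. Ssrp, the HMG-box subunit of the histone chaperone FACT, had 59.7, and Sox102F had 62.7. The Sox genes Sox15 (134) and Sox100B (66.6), D (43.3), the Wnt effector pan (148), the repressor cic (292) and CG4617 (168) had a summit only farther out. The other 10 genes, dre4 (the FACT subunit without an HMG box), TFAM, tHMG1, tHMG2, Sox21a, Sox21b, SoxN, Bap111, polybromo and CG12104, had none.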

How the data were processed

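Peak lists in narrowPeak format on build dm6 were used: 1 list of 30000 regions per replicate, 1 for the pooled replicates and the IDR list. Peak signal was deposited by the authors for each region, derived from alignments and control libraries per the file headers. The deposited −log10 q-value of each region was turned into a false discovery rate. The summit offset, another deposited value, gave summit positions, here 1-based. The caller and aligner are not given in the sources used. Fragments were sheared to 200 to 800 bp, per the labels. Read totals are not given, so depth is unknown. The dm3 lists were not used.

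Genes came from Ensembl release 115 without transposable elements (18277 genes), and sequence from the Release 6 reference, whose arms hold every dm6 region. Sequence from 2R is not reported here. Summits were counted, ranked by signal within a list and matched within 100 bp. The code was tested on simulated data. Python 3.11.15, numpy 2.4.6, pandas 2.3.3, biopython 1.88 and matplotlib 3.10.9 were used.

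The members, lists, alternatives and the rule for named genes were chosen with earlier results of these data known. The rule took HmgD and HmgZ, genes with a TSS in the window, HMG-box and chromatin list members, the 3 peaks next above and below in signal over 500 bp from every TSS, the 3 intronic peaks most alike in both replicates and the 5 strongest overlapping same-strand pairs. The fixed design assumed a same-strand pair. Since the genes lie on opposite strands, 5′ overlaps were added, with the 5 strongest named.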

Additional observations from a re-analysis of the deposited data

How the results depend on the processing

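Counts over 1 or 2 genes carry no error, and 2 replicates of 1 group allow no test between conditions. No paired analysis was possible because there was 1 group. The 6 IDR summits were also counted with flanks of 2 and 10 kb. The number was 3 in the stronger 1434 of the IDR peaks and 4 with overlapping regions counted once. With 1 replicate left out, the 2868 strongest regions of the other were counted, 4 in replicate 1 and 8 in replicate 2. These were not all the same summits. In replicate 1, 21702012 and 21706003 matched no IDR summit within 100 bp, and in replicate 2 21703597 and 21706759 did not. In the pooled list, 3 of the 6 had a false discovery rate of at most 5%. The distance from the strongest summit to the nearest TSS, 592 bp, was between 565 and 599 bp with 1 replicate left out, and its rank was 7 or 8. When summits were matched within 300 bp, or regions by an overlap of 50% of each, there were 6 summits matched in both replicates, against 5. HMG-box genes with a promoter peak numbered 3 within 200 bp, 3 with the stronger IDR peaks, 7 within 1000 bp, 4 or 5 with 1 replicate left out, and 13 over gene bodies with 5 kb. Added after seeing the data, the place among runs of summits was 1 for runs of 6, 2 for runs of 5, 7 for runs of 4, 10 for joined regions, 29 for runs of 3 of the stronger peaks and 35 for runs of 4 in replicate 1. The last 2 settings held too few summits here for a run of 6. The 5′ overlapping pairs with a summit numbered 19 or 20, and the same-strand pairs 44 or 46. The cause of these differences was not tested.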

Other observations

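Genes for proteins of condensed sperm chromatin and other genes of chromatin architecture and assembly were set beside the HMG-box genes. Of 12 sperm chromatin symbols, 9 were found in the annotation, and 0 of these had a promoter peak, against 12.5% of all protein-coding genes. A rough rule that takes 3 as the upper limit of a count of 0 allows a share of up to 33.3%. The rule is meant for many random draws, and these 9 were a chosen list, so it only marks how little they can show. Prtl99C, a protamine-like gene, had a summit of 55.0 within 5 kb and was the 1 gene of the 9 (11.1%) with a summit in the gene body or within 5 kb, against 31.6% of all protein-coding genes. Mst77F, Tpl94D, CG14835, CG30056, CG31010, CG30356, CG34269 and CG42355 had none, and Mst35Ba, Mst35Bb and CG34529 were not matched. Of 19 architecture and assembly genes, 4 (21.1%) had a promoter peak, against 12.5% of all protein-coding genes. These were the gene for the heterochromatin protein HP1a, with 184 and a stronger summit of 657 within 5 kb, Df31 with 105, HP1b with 86.9 and Acf, a subunit of a nucleosome spacing complex, with 56.9. Iswi (209) and Caf1-55 (848) had a summit only farther out, within 5 kb. With them, 6 of the 19 (31.6%) had a summit in the gene body or within 5 kb, the same share as the 31.6% of all protein-coding genes. BigH1, D1, HP1c, Hmr, Lhr, su(Hw), Caf1-180, Caf1-105, Nap1, Nph, Nlp, Chrac-14 and Chrac-16 had none.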
